A study of Mus musculus with 24 samples.

Results

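The genes described here were 38 genes of cholesterol and fatty acid synthesis, chosen by what their products are known to do. The rule uses no measured value, but these genes were chosen with earlier results of these data known. They cover the mevalonate pathway (8 genes), the steps from squalene to cholesterol (11 genes), the sterol-sensing SREBP factors and their regulators (5 genes), a sterol carrier (1 gene), fatty acid synthesis and desaturation (10 genes) and sterol export (3 genes). All 38 were found by Ensembl identifier among the 17464 genes of the table, and all 38 passed the filter on low values (10 or more in at least 4 libraries) that left 16630 genes for testing. *Fads2* passed it only through the 4 old rTreg libraries and so had to differ from them. The other libraries that reached 10 for *Fads2* held 10.4 and 12.6. They were measured by bulk RNA-seq in regulatory T cells (Treg cells) from the spleens of wild-type C57BL/6JRccHsd mice, 4 young (2 months old) and 4 old (26 months old). Each mouse gave 3 sorted Treg subsets. Resting cells (rTreg) were CD62L+ and CD44-, activated cells (aTreg) were CD62L- and CD44+, and kTreg cells carried the receptor KLRG1. The 24 libraries thus formed 6 groups of 4, and equal replicate numbers within an age mark the same mouse. The labels name no treatment, and the subsets were compared with each other and between ages. The cells of a library are a bulk sample, in which fewer cells of a type and less RNA per cell cannot be told apart.

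Cells make cholesterol from acetyl-CoA. The mevalonate pathway first builds isoprenoid units, which also serve to prenylate proteins and to make ubiquinone and dolichol. Squalene is then formed, oxidized, closed to lanosterol and trimmed to cholesterol. SREBP2, the product of *Srebf2*, drives the genes of this pathway, and SREBP1, the product of *Srebf1*, drives mainly fatty acid synthesis. When sterols are scarce, SCAP escorts the SREBP factors to the Golgi for cleavage, and when sterols are plentiful the INSIG proteins hold them in the endoplasmic reticulum. LXR receptors, among them LXRbeta from *Nr1h2*, sense oxysterols and induce the exporters ABCA1 and ABCG1. T cells raise both synthetic pathways when they grow and divide, and Treg cells depend on mevalonate products for their suppressive function.

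The SREBP factors bind short sterol regulatory elements close to the start of their target genes, often near a CCAAT box. The window from 250 bases before to 50 bases after the start of the canonical transcript was searched on GRCm39, on both strands, for the letters TCACNCCAC as a pattern of the sterol regulatory element and for CCAAT. The first pattern lay in the windows of 4 of the 38 genes (10.5%), against 155 of the 12641 windows of tested protein-coding genes (1.23%). CCAAT lay in 24 of the 38 windows (63.2%) and in 5006 of all 12641 windows (39.6%). No copy of the first pattern overlapped a CCAAT box in these 4 genes. Among them were *Hmgcs1*, *Acss2* and *Acaca*, and *Acss2* held the pattern at 2 places. None of the 4 was called in a comparison between subsets over both ages, *Hmgcs1* was called between old kTreg and old rTreg cells, and *Acss2* was called in the comparison of ages in aTreg cells. The copies of these 3 genes are printed here from 5′ to 3′ on the strand of the gene, with the pattern in capitals and at most 20 bases on each side, because they are the members' stretches that hold this pattern. They were chosen after the search was seen. A letter match is a description of the sequence and not a site of binding.
*Hmgcs1* (chr13:120151732-120151778, plus strand): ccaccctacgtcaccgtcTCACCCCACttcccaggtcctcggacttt
*Acss2* (chr2:155359618-155359657, plus strand): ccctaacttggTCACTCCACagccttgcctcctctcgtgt
*Acss2* (chr2:155359662-155359710, plus strand): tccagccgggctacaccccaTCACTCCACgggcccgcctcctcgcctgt
*Acaca* (chr11:84063830-84063878, plus strand): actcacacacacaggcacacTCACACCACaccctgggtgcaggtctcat
The pattern began 232 bases before the start in *Hmgcs1*, 239 and 186 bases before it in *Acss2*, and 98 in *Acaca*. The stretches of *Acss2* and *Acaca* lie inside the annotated span of the gene, and that of *Hmgcs1* lies upstream of it.

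The values are read counts divided by 1 size factor per library, called normalized counts below, and a read was worth between 0.694 and 1.32 normalized counts. The libraries held between 15045747 and 29521942 reads on listed genes. The sort matched its labels, with *Klrg1* between 16559 and 41561 normalized counts in the kTreg libraries and at most 357 elsewhere, and *Foxp3* was at least 5079 in every library. Some libraries stood apart. The young kTreg library of replicate 4 listed 4913 genes at 0, against 419 to 2756 in the others. The libraries of young mouse 2 held raised markers of B cells (a list of 6, all in the table), with a summed level of 16712, 9523 and 7921 in rTreg, aTreg and kTreg cells against 589 to 2065 in the other 21 libraries. Their 10 macrophage and monocyte markers summed to 9903, 3582 and 44397. The 4 old rTreg libraries held 10352 to 27141 of these macrophage markers and 5154 to 14511 of 8 basophil and mast cell markers, which summed to at most 751 elsewhere. The part of these cells in the results below was not tested except where the libraries could be left out. Each count of called members was therefore repeated without the 3 libraries of young mouse 2 and young kTreg replicate 4, and no such repeat was possible for the old rTreg group. For the proliferation genes and the lists of neighbouring pathways no such repeat is given.

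Per kilobase of exon, the fatty acid elongase gene *Elovl5* had the highest mean level of the 38 genes over all libraries (907 normalized counts per kilobase), followed by *Nr1h2* (775), *Ebp* (591) and *Srebf2* (404). *Acly*, which makes cytosolic acetyl-CoA from citrate, stood at 364 and *Srebf1* at 323. The lowest were *Mvk* (21.7), *Abca1* (21.6), *Scd1* (6.83), *Acaca* (6.07) and *Fads2* (2.51). *Fads2* and *Scd1* were at or close to 0 in most libraries, while each of the other 36 genes was above 0 in at least 23 of the 24 libraries. The group with the lowest mean differed by pathway. Of the 19 mevalonate and sterol enzymes 11 (57.9%) had their lowest group mean in old kTreg cells, where 14.5% of all tested genes had theirs, and none had its highest there. Of the 10 fatty acid enzymes 5 had their lowest mean in old aTreg cells (15.5% of all tested genes) and 4 their highest in old rTreg cells (18.1%), among them *Fads2*.

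**Figure D1:**
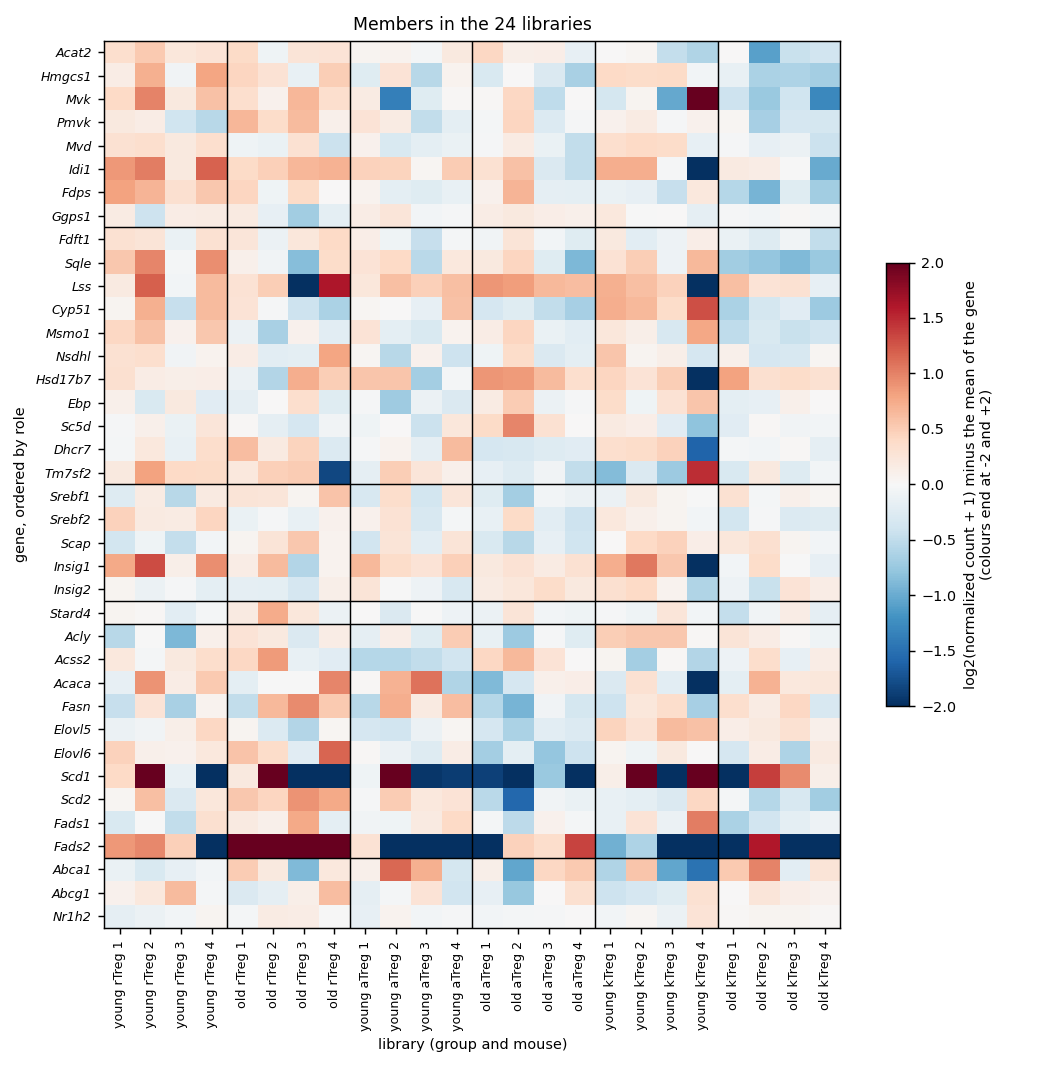
Heat map of the 38 genes (rows, ordered by role and divided by lines) in the 24 libraries (columns, groups divided by lines). Colour gives log2(normalized count + 1) minus the mean of the gene over the libraries, from −2 (blue) to +2 (red). Old kTreg columns are mostly blue in the upper, sterol rows, *Fads2* is red in the 4 old rTreg libraries, and *Idi1*, *Lss*, *Hsd17b7* and *Insig1* are at 0 in young kTreg replicate 4.

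Subsets were first compared with both ages given equal weight, over 8 mice. A gene was called where limma on log2(normalized count + 1) gave an adjusted p below 0.05 (Benjamini-Hochberg, over all 16630 genes) and a fold above 1.5. Against rTreg cells, the median log2 difference of the 38 members was −0.20 in aTreg cells, with 31 of 38 below 0, and −0.20 in kTreg cells, with 29 of 38 below 0. The median over all tested genes was 0.06 and −0.01. The median of the members in aTreg against rTreg cells was below 0 in each of the 8 mice, from −0.28 to −0.12, and below the median of all genes of the same mouse in 8 of 8. In kTreg against rTreg cells it was below 0 in 7 of 8 mice, with 0.06 in young mouse 3, and below the median of all genes in 6 of 8. In young mouse 4, whose kTreg library had the most genes at 0, it was −0.25 beside −0.26 over all genes. Both comparisons share the rTreg libraries. Of a list of 20 proliferation genes, 11 were called lower in aTreg than in rTreg cells, beside 2.78% of all genes. In kTreg against aTreg cells 11 were called higher, beside 4.13% of all genes. Between kTreg and rTreg cells no gene of that list was called over both ages, where the ages went opposite ways. The summed level of the list had a median of 34150 in young rTreg and 47814 in young kTreg cells. In old mice it was 65318 in rTreg and 33729 in kTreg cells. The part of proliferation in the medians was not tested. Between kTreg and aTreg cells the median was −0.04 (all genes −0.08) and turned to 0.01 without the 4 libraries. It was above 0 in 3 of 4 young mice and below 0 in 4 of 4 old mice. Young mouse 4 had −0.018 beside −0.22 over all genes, so that the members lay above all genes in 4 of 4 young mice and below them in 4 of 4 old mice.

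Few members passed the test over both ages. In kTreg against rTreg cells 4 of 38 were called lower (*Fdps*, *Fads2*, *Acat2* and *Scd2*) and 0 higher, where 6.09% of all genes were called lower and 9.37% higher. *Fads2* had to differ from old rTreg cells by the filter, and 3 of 37 were called lower without it. In aTreg against rTreg cells 2 were called lower (*Fads2* and *Elovl6*) and 0 higher, against 2.78% and 5.23% of all genes, and without *Fads2* 1 of 37. In kTreg against aTreg cells 1 was called higher (*Elovl5*) and 0 lower, against 4.13% and 3.26%. At an unadjusted p below 0.05 with the same fold, 5 were lower in kTreg than in rTreg cells and 0 higher, for which the shares of all genes are not given here. Without the 4 libraries the counts, *Fads2* included, were 5 lower in kTreg than in rTreg cells and 2 lower in aTreg than in rTreg cells, and 1 higher and 1 lower in kTreg than in aTreg cells. The shares of all genes in that fit are not given here. With so few calls these counts describe single genes, and no test was made over the list.

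Within an age other members were called as well. Between old kTreg and old rTreg cells 6 members were called lower and 0 higher, against 3.09% and 5.77% of all genes. These were the 4 mevalonate enzymes *Acat2*, *Hmgcs1*, *Pmvk* and *Fdps* of 8, and *Scd2* and *Fads2* of the 10 fatty acid enzymes, and without *Fads2* 5 of 37 were called. Between young kTreg and young rTreg cells 2 mevalonate enzymes were called lower (*Acat2* and *Fdps*) and 1 fatty acid enzyme higher (*Acly*), against 7.56% and 8.24%. Old aTreg cells had 4 members called lower than old rTreg cells (*Elovl6*, *Scd2*, *Fads2* and *Scap*) and 0 higher, against 3.78% and 4.82%, and without *Fads2* 3 of 37. In young mice 1 was called lower in aTreg than in rTreg cells (*Fdps*) and 0 higher, against 0.637% and 2.71%. *Elovl5* was the 1 member called higher in young kTreg than in young aTreg cells, with 0 lower, against 3.46% and 3.49%. Between old kTreg and old aTreg cells 0 were called, against 1.33% of all genes higher and 0.866% lower. Without the 4 libraries, *Fads2* included, 7 were called lower in old kTreg than in old rTreg cells, 5 lower in old aTreg than in old rTreg cells, 1 lower in old kTreg than in old aTreg cells and 0 in young aTreg than in young rTreg cells. The shares of all genes in that fit are not given here, and those above belong to all 24 libraries. No member was called in the test of whether the difference between subsets itself changed with age. The proliferation genes summed to a median of 65318 in old rTreg, 33729 in old kTreg and 31794.5 in old aTreg cells. Their part in the calls within old mice was not tested.

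**Figure D2:**
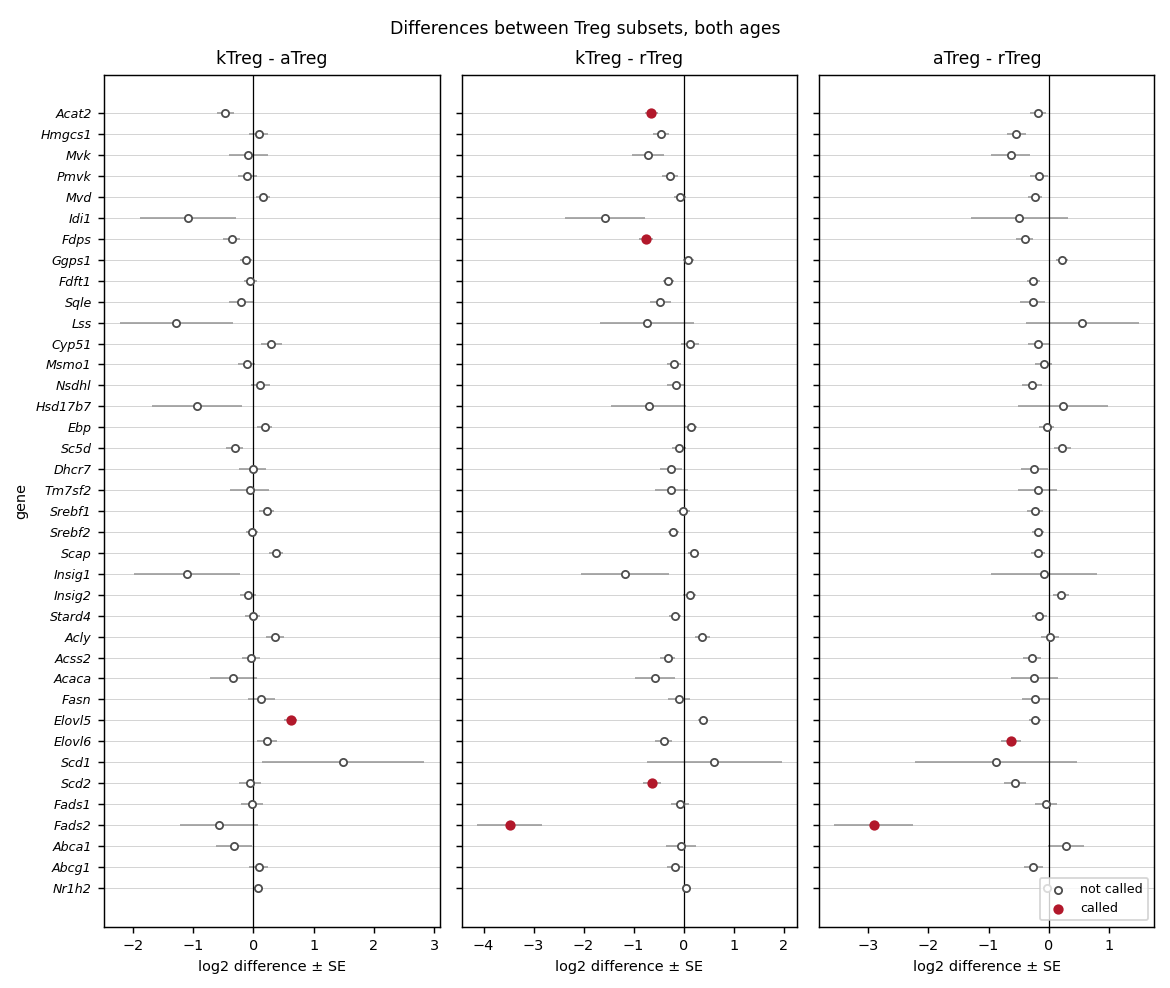
Log2 differences between subsets (horizontal axis) for the 38 genes (vertical axis, ordered by role), with 1 standard error as a bar. Red points were called at an adjusted p below 0.05 and a fold above 1.5. Most points of the panels against rTreg cells lie left of 0. *Fads2*, which passed the filter only through old rTreg cells, lies farthest left.

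Among the mevalonate enzymes, *Fdps* showed the clearest difference. Its product, farnesyl diphosphate synthase, makes the branch point between sterols and protein prenylation. *Fdps* (ENSMUSG00000059743, chr3:89000888-89019213, minus strand of GRCm39) had 1316, 1206, 935 and 1092 normalized counts in the 4 young rTreg libraries and 1008, 709.7, 984 and 758 in the old ones. In kTreg cells it had 689, 670.3, 548 and 868 in young and 508, 395, 636 and 462 in old mice. In every mouse it was lower in kTreg than in rTreg cells, and the log2 difference was −0.76 ± 0.14 (SE; adjusted p = 0.000341, limma). In aTreg cells it had 792, 659.7, 637 and 675 in young mice, below all young rTreg libraries, and 799, 1203, 663 and 658 in old mice, where the groups overlapped. The log2 difference of aTreg from rTreg cells was −0.40 ± 0.14 (SE; adjusted p = 0.0744, limma), which was not called. Pseudogenes of *Fdps* exist in the mouse, so its reads could have been split by the authors' counting.

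*Acat2*, the cytosolic thiolase that joins acetyl-CoA units at the start of the pathway, was lower in kTreg cells than in either other subset in all 8 mice. *Acat2* (ENSMUSG00000023832, chr17:13161367-13179641, minus strand of GRCm39) had 857, 873, 612 and 562 normalized counts in young and 855, 403, 626 and 652 in old kTreg cells. In rTreg cells it had 1079.7, 1229, 999 and 1035 in young and 1118, 800.2, 1023 and 1033 in old mice. The log2 difference of kTreg from rTreg cells was −0.64 ± 0.14 (SE; adjusted p = 0.00127, limma). In aTreg cells the gene had 882, 894, 828 and 975 in young and 1136, 928, 936 and 759 in old mice. The difference of kTreg from aTreg cells was −0.46 ± 0.14 (SE; adjusted p = 0.0272, limma), below the fold needed for a call. Without old kTreg replicate 2, the lowest library, the difference of kTreg from rTreg cells was −0.54 and was not called. *Acat2* has a near-identical copy on the same chromosome, so its reads are uncertain in the same way.

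*Hmgcs1*, which makes HMG-CoA, was lower in aTreg than in rTreg cells in 8 of 8 mice, with a log2 difference of −0.54 ± 0.15 (SE; adjusted p = 0.0247, limma), under the fold threshold. It had 1032, 942, 694 and 1088 normalized counts in old rTreg cells and 698, 498, 501 and 480.5 in old kTreg cells, with a log2 difference of −0.78 ± 0.22 (SE; adjusted p = 0.0238, limma), and was called there although the groups overlapped. *Idi1*, which isomerizes the isoprenoid unit, was lower in kTreg than in rTreg cells in 8 of 8 mice. Its difference of −1.58 ± 0.80 (SE; adjusted p = 0.169, limma) rested on young kTreg replicate 4, where *Idi1* was listed at 0, and was −0.54 (adjusted p = 0.0561, limma) without that library. *Mvk*, the mevalonate kinase, was the reverse case. It had 868 normalized counts in that library against 104 to 219 in the other young kTreg libraries, and without it *Mvk* was called lower in kTreg than in rTreg cells (log2 difference −1.03, adjusted p = 0.0018, limma; −0.72 and adjusted p = 0.117 with it). Without all 4 libraries *Mvk* was called lower than in aTreg cells too (log2 difference −0.68, adjusted p = 0.0295, limma). *Pmvk*, *Mvd* and *Ggps1* were not called between subsets over both ages, with differences from −0.27 to 0.22. *Pmvk*, the phosphomevalonate kinase, had 537, 434, 527 and 362 normalized counts in old rTreg cells and 346, 214, 268 and 265 in old kTreg cells, with a log2 difference of −0.77 ± 0.22 (SE; adjusted p = 0.0293, limma), and these groups did not overlap. In young mice it had 387, 374, 257 and 229 in rTreg and 357, 379.6, 334 and 359 in kTreg cells.

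None of the 11 enzymes from squalene to cholesterol was called between subsets. *Sqle*, squalene epoxidase, was lower in kTreg than in rTreg cells in 8 of 8 mice with a log2 difference of −0.47 ± 0.21 (SE; adjusted p = 0.113, limma). *Fdft1*, which forms squalene, had a log2 difference of −0.31 ± 0.11 (SE; adjusted p = 0.0486, limma) and was lower in 7 of 8 mice. In all, 5 members were lower in kTreg than in rTreg cells in each of the 8 mice, *Acat2*, *Idi1*, *Fdps*, *Sqle* and *Srebf2*, as were 6.15% of all genes. *Lss*, which closes squalene epoxide to lanosterol, was at 0 in young kTreg replicate 4 and at 18 in old rTreg replicate 3, against 252 to 869 in the other 22 libraries. *Hsd17b7* was at 0 in young kTreg replicate 4 and at 99.7 to 296 elsewhere. The late enzymes *Ebp*, *Sc5d*, *Dhcr7*, *Nsdhl* and *Tm7sf2* had differences between −0.31 and 0.22 in the 3 comparisons.

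The fatty acid genes held the other calls over both ages. *Elovl5*, which elongates polyunsaturated fatty acids, was higher in kTreg cells than in either other subset in all 8 mice. *Elovl5* (ENSMUSG00000032349, chr9:77818113-77891802, plus strand of GRCm39) had 6814, 6121, 7767 and 7489 normalized counts in young and 5478, 5710.1, 6194 and 5394 in old kTreg cells. In aTreg cells it had 3952, 3862, 4609.7 and 5167 in young and 3950.4, 3235, 4311 and 4129 in old mice. Within each age no aTreg library reached a kTreg library, and the log2 difference was 0.62 ± 0.10 (SE; adjusted p = 0.000295, limma), a fold of 1.53. Without old aTreg replicate 2 the log2 difference was 0.57, under the fold of 1.5, so the call was lost. In rTreg cells it had 4618, 4788, 5428 and 6693 in young and 5214, 4139, 3347 and 5124 in old mice, and the difference of kTreg from rTreg cells was 0.39 ± 0.10 (SE; adjusted p = 0.00744, limma). The same direction in 8 of 8 mice was found for 5.58% of all genes as higher and 6.09% as lower in kTreg against aTreg cells, and for 6.53% as higher in kTreg against rTreg cells.

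*Elovl6*, which elongates palmitate to stearate, was lower in aTreg than in rTreg cells in all 8 mice, as was *Hmgcs1* (2.87% of all genes), and 0 members were higher in all 8 (4.58%). *Elovl6* (ENSMUSG00000041220, chr3:129326004-129432144, plus strand of GRCm39) had 428, 333, 331 and 359 normalized counts in young and 461, 401, 266 and 697 in old rTreg cells. In aTreg cells it had 314, 286, 258 and 344 in young and 193, 269.6, 181 and 232 in old mice. The log2 difference of aTreg from rTreg cells was −0.63 ± 0.17 (SE; adjusted p = 0.0177, limma). It lay at −0.27 in young and −0.99 in old mice, and without old rTreg replicate 4, the highest library, it was −0.52 and not called. Without old mouse 4 it was −0.53, also under the fold. The adjusted p was lost, with the fold still past the threshold, without young mouse 1 (−0.60), young mouse 3 (−0.62) or old mouse 1 (−0.59). kTreg cells had 322, 291, 355 and 310.4 in young and 246, 342, 203 and 352 in old mice.

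*Acly* was called higher in young kTreg than in young rTreg cells. It had 7244, 7513, 7441 and 5238 normalized counts in young kTreg and 3500.2, 5147, 2746 and 5507 in young rTreg cells, with a log2 difference of 0.74 ± 0.21 (SE; adjusted p = 0.015, limma). In old mice it had 6136, 5731, 5228 and 4851 in kTreg and 6225, 5911, 4202 and 5734 in rTreg cells, with a log2 difference of 0.0021 ± 0.21 (SE; adjusted p = 0.997, limma).

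*Scd2*, a stearoyl-CoA desaturase that makes monounsaturated fatty acids, was called lower in kTreg than in rTreg cells, with −0.63 ± 0.18 (SE; adjusted p = 0.0159, limma). *Scd2* (ENSMUSG00000025203, chr19:44281613-44295303, plus strand of GRCm39) had 1579, 1469, 2020.3 and 1832 normalized counts in old rTreg cells and 1054, 731, 875 and 673 in old kTreg cells, and these groups did not overlap. In young mice the values were 1116, 1643, 889.9 and 1277 in rTreg and 983, 951, 893 and 1447 in kTreg cells, which overlapped. The difference was −1.06 in old and −0.20 in young mice. aTreg cells had 1067, 1539.6, 1255 and 1321 in young and 750.5, 364, 1036 and 993 in old mice, with a log2 difference of −0.57 ± 0.18 (SE; adjusted p = 0.0514, limma) against rTreg cells over both ages. *Scd1* and *Scd2* are close relatives, and how the counting treated reads that fit both is not given in the sources used here. Without young mouse 2 the *Scd2* difference of kTreg from rTreg cells was −0.53 and was not called, and the call was also lost without young rTreg replicate 2, old kTreg replicate 4 or old mouse 4.

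*Fads2* and *Scd1* were seen mainly in 1 group and in 1 mouse. *Fads2*, the delta-6 desaturase of polyunsaturated fatty acids (ENSMUSG00000024665, chr19:10038130-10079203, minus strand of GRCm39), had 70.1, 103, 75.6 and 84.6 normalized counts in old rTreg cells. It had 7.19, 7.75, 5.27 and 0 in young rTreg cells and between 0 and 12.6 in the 16 aTreg and kTreg libraries. Because it passed the filter only through old rTreg cells, no fold or p is given for it. The 4 old rTreg libraries were the ones with raised basophil and mast cell markers. In them *Gata2* had 788 to 1731, *Mcpt8* 479 to 1984, *Prss34* 620 to 3401 and *Fcer1a* 645 to 2685 normalized counts, and in the 4 young rTreg libraries at most 11.0, 12.3, 27.7 and 30.1. *Lyz2*, a macrophage and monocyte gene, had 9381 to 25153 in old rTreg cells. The part of such cells in the *Fads2* level was not tested.

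*Scd1* was called in no comparison. It had 356, 397 and 211 normalized counts in the rTreg, aTreg and kTreg libraries of young mouse 2, 90.6 in young kTreg replicate 4 and 53.1 in old rTreg replicate 2, and at most 17.1 in the other 19 libraries. The 3 libraries of young mouse 2 were those with raised B cell markers, and other markers were raised in some of them too. Their 5 neutrophil markers summed to 4256, 1087 and 1528, against at most 1117 elsewhere other than 10025 and 13183 in old rTreg replicates 2 and 3. Their 4 erythroid markers summed to 6472, 570.2 and 1079.6. Young kTreg replicate 4, which held *Scd1* as well, had an erythroid sum of 3104, the other 8 young libraries had at most 391 and the old rTreg libraries 734 to 2209. *Cd79a* reached 5242, 2557 and 2108 in young mouse 2 and was at most 183 in the 4 old rTreg libraries. In old rTreg replicate 2 and in young kTreg replicate 4, which also held *Scd1*, the B cell markers summed to 926 and 2065. The part of any of these cell types in the *Scd1* level was not tested.

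**Figure D3:**
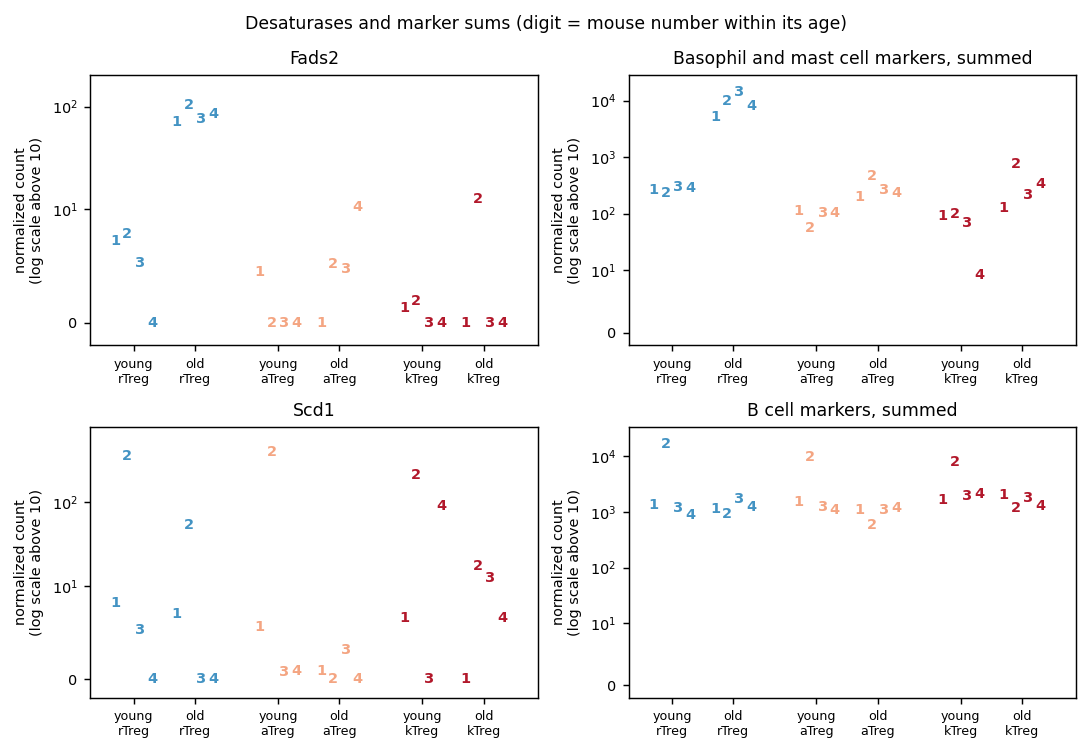
Normalized counts (vertical axis, linear up to 10 and logarithmic above) of *Fads2* and *Scd1* and the summed normalized counts of 8 basophil and mast cell markers and 6 B cell markers in the 6 groups. Each digit is a library and gives its mouse number within the age. *Fads2* and the basophil sum are highest in the 4 old rTreg libraries, and *Scd1* and the B cell sum are highest in young mouse 2, whose macrophage, neutrophil and erythroid sums are not plotted.

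None of the 5 SREBP factors and regulators was called between subsets over both ages. *Srebf2* was lower in kTreg than in rTreg cells in 8 of 8 mice, with a log2 difference of −0.20 ± 0.10 (SE; adjusted p = 0.161, limma). *Srebf1* differed by −0.23 to 0.22 in the 3 comparisons. *Scap* was higher in kTreg than in aTreg cells in 7 of 8 mice, with a log2 difference of 0.38 ± 0.11 (SE; adjusted p = 0.032, limma), under the fold threshold. In old mice *Scap*, which escorts the SREBP factors, was called lower in aTreg than in rTreg cells, with means of 1103 ± 127 and 1667 ± 274 (SD, n = 4) and a log2 difference of −0.59 ± 0.16 (SE; adjusted p = 0.0225, limma). *Insig1*, itself an SREBP target, had 611, 771, 535 and 0 normalized counts in young kTreg cells, so that its fitted differences rested on the library at 0. *Insig2* differed by −0.09 to 0.20. *Stard4*, which carries sterols between membranes, differed by −0.17 to −0.01. Of the export genes, *Nr1h2* was the steadiest member, between 2367 and 3245 in all 24 libraries, and *Abca1* and *Abcg1* were not called. These 3 genes had a median of 0.29 in old against young kTreg cells, and none of them was called. *Nr1h2* hardly differed there, with means of 2764 in young and 2750 in old kTreg cells.

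The comparison of ages asked what changes within each subset between 2 and 26 months. In kTreg cells 1 of 38 members was called lower in old mice (*Cyp51*) and 0 higher, where 0.235% of all genes were called lower and 1.02% higher. The members had a median of −0.18, with 24 of 38 below 0, whereas all tested genes had a median of 0.12. The mevalonate enzymes had a median of −0.41 (7 of 8 below 0), those from squalene on −0.23 (7 of 11 below 0), and the 10 fatty acid enzymes −0.25. In 3 members, *Hmgcs1*, *Sqle* and *Cyp51*, every old library lay below every young one, as in 3.88% of all genes, and 0 members showed the opposite (6.57%).

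*Cyp51*, the sterol 14-demethylase that acts on lanosterol, fell in old kTreg cells. *Cyp51* (ENSMUSG00000001467, chr5:4123416-4154751, minus strand of GRCm39) had 1867, 1779, 1469 and 2776 normalized counts in young and 730.4, 892, 973 and 684 in old kTreg cells. The means were 1973 ± 562 and 819.8 ± 136 (SD, n = 4), and the log2 difference was −1.24 ± 0.25 (SE; adjusted p = 0.0128, limma). Young kTreg replicate 4 was the highest library, and without it the difference was −1.06 (adjusted p = 0.0365, limma). Without that library and young mouse 2, which left 2 young kTreg libraries, it was −1.03 (adjusted p = 0.0861, limma) and not called. The call was also lost when only the kTreg libraries were fitted (adjusted p = 0.0566) and without old kTreg replicate 1 or 4 (−1.19 and −1.16). In aTreg cells the values were 1165, 1141, 1006 and 1709.7 in young and 900.4, 958, 807 and 713 in old mice, which did not overlap. The gene was not called there, with a log2 difference of −0.55 ± 0.25 (SE; adjusted p = 0.351, limma). In rTreg cells they were 1173, 1863, 819 and 1747 and 1376, 1119, 849 and 729, with a log2 difference of −0.43 ± 0.25 (SE; adjusted p = 0.336, limma).

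*Sqle* and *Hmgcs1* are shown because their kTreg groups did not overlap, and were chosen after their values were seen. *Sqle* (ENSMUSG00000022351, chr15:59186869-59203043, plus strand of GRCm39) had 757, 874, 581 and 971 normalized counts in young and 384, 362, 338 and 372 in old kTreg cells. The old libraries lay close together (SD 19.3), and all were below the lowest young library. The log2 difference was −1.10 ± 0.29 (SE; adjusted p = 0.0636, limma), past the fold but not past the adjusted p. *Hmgcs1* (ENSMUSG00000093930, chr13:120151915-120170470, plus strand of GRCm39), whose window held the sterol regulatory element pattern printed earlier, had 1015, 995, 1009 and 739 in young and 698, 498, 501 and 480.5 in old kTreg cells. Its log2 difference was −0.79 ± 0.22 (SE; adjusted p = 0.0743, limma). The old means of *Sqle* and *Hmgcs1* were below the young ones in the other subsets too, where the groups overlapped. *Sqle* had means of 979 in young and 603 in old rTreg cells, and of 680 and 601 in aTreg cells. *Hmgcs1* had 1048 and 939 in rTreg cells, and 730 and 630 in aTreg cells. DESeq2 on the recovered reads called both genes, and *Cyp51*, lower in old kTreg cells. *Msmo1*, a sterol methyl oxidase further along the pathway, had a log2 difference of −0.61 ± 0.20 (SE; adjusted p = 0.152, limma). The proliferation genes of a list of 20 moved beside these values, with a summed level of 40496 to 68720 in young and 31657 to 37734 in old kTreg cells and 2 of 20 called lower (*Rrm2* and *Bub1b*). The part of cell division was not tested.

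**Figure D4:**
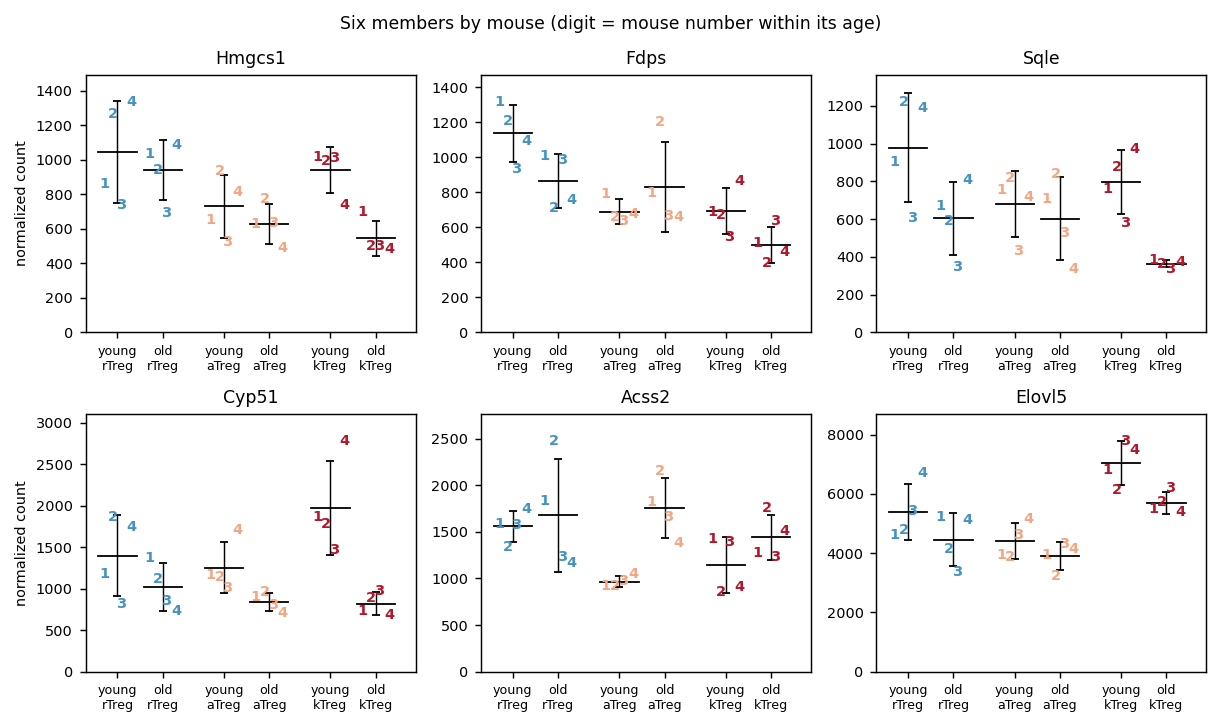
Normalized counts (vertical axis, from 0) of *Hmgcs1*, *Fdps*, *Sqle*, *Cyp51*, *Acss2* and *Elovl5* in the 6 groups. Each digit is a library and gives its mouse number within the age, and black lines and bars give the mean and SD (n = 4). The means of *Hmgcs1*, *Fdps*, *Sqle* and *Cyp51* are lowest in old kTreg cells. That of *Cyp51* is close to its mean in old aTreg cells (820 and 844). *Acss2* is lowest in young aTreg cells, where the 4 libraries lie between 921 and 1045.

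In aTreg cells 1 of 38 members was called higher in old mice (*Acss2*) and 0 lower, against 1.85% and 0.86% of all genes. *Acss2* makes acetyl-CoA from acetate. *Acss2* (ENSMUSG00000027605, chr2:155355679-155428016, plus strand of GRCm39), with its 2 copies of the pattern, had 921, 923, 973 and 1045 normalized counts in young and 1814, 2157, 1662 and 1382 in old aTreg cells. The groups did not overlap, and the log2 difference was 0.84 ± 0.21 (SE; adjusted p = 0.0269, limma), a fold of 1.79. The call was lost in the repeats without each of the young aTreg libraries and without old aTreg replicate 1 or 2, in which the difference lay between 0.74 and 0.88 and so stayed above the fold. In rTreg cells it had 1581, 1333, 1575 and 1739 in young and 1827, 2468, 1234 and 1168 in old mice, and in kTreg cells 1427, 857, 1385 and 913 and 1271, 1749.9, 1227 and 1509.7. Both pairs of groups overlapped.

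The median of the members in old against young aTreg cells was −0.08, and 0.01 over all genes. The fatty acid enzymes had a median of −0.40 with 8 of 10 below 0, while the enzymes from squalene on had 0.10 with 4 of 11 below 0. Every old aTreg library lay below every young one for *Cyp51*, *Dhcr7* and *Scd2* (5.81% of all genes) and above for *Lss* and *Acss2* (7.63%). *Fasn*, the fatty acid synthase, had 814, 1965, 1357 and 1835 normalized counts in young and 807, 623, 1133 and 936 in old aTreg cells and overlapped, with a log2 difference of −0.72 ± 0.32 (SE; adjusted p = 0.327, limma).

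In rTreg cells 1 of 38 members was called higher in old mice (*Fads2*) and 0 lower, against 4.12% and 1.71% of all genes. *Fads2* passed the filter only through old rTreg cells and had to differ there, so that 0 of 37 other members were called. At an unadjusted p below 0.05 with the fold, 2 were higher and 2 lower, and DESeq2 called 0 and 1, for which the shares of all genes are not given here. The libraries that hold *Fads2* also hold the basophil and macrophage markers given above. Of the 20 proliferation genes 14 were called higher in old rTreg cells, beside these values. The 9 fatty acid enzymes other than *Fads2* had a median of 0.25 with 3 of 9 below 0, and the mevalonate enzymes −0.21 with 7 of 8 below 0. Old rTreg libraries did not overlap the young ones for *Scap* and *Fads2*, which were higher (6.61% of all genes, and fixed by the filter for *Fads2*), and for *Msmo1* and *Srebf2*, which were lower (5.05%). *Msmo1* had 1498, 1690.4, 1196 and 1639 normalized counts in young and 1035, 715, 1193 and 969 in old rTreg cells, with a log2 difference of −0.63 ± 0.20 (SE; adjusted p = 0.0617, limma). Without young kTreg replicate 4, which is in neither group but enters the shared spread, *Msmo1* and *Insig1* were called lower in old rTreg cells (adjusted p = 0.0199 and 0.0421, limma).

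**Figure D5:**
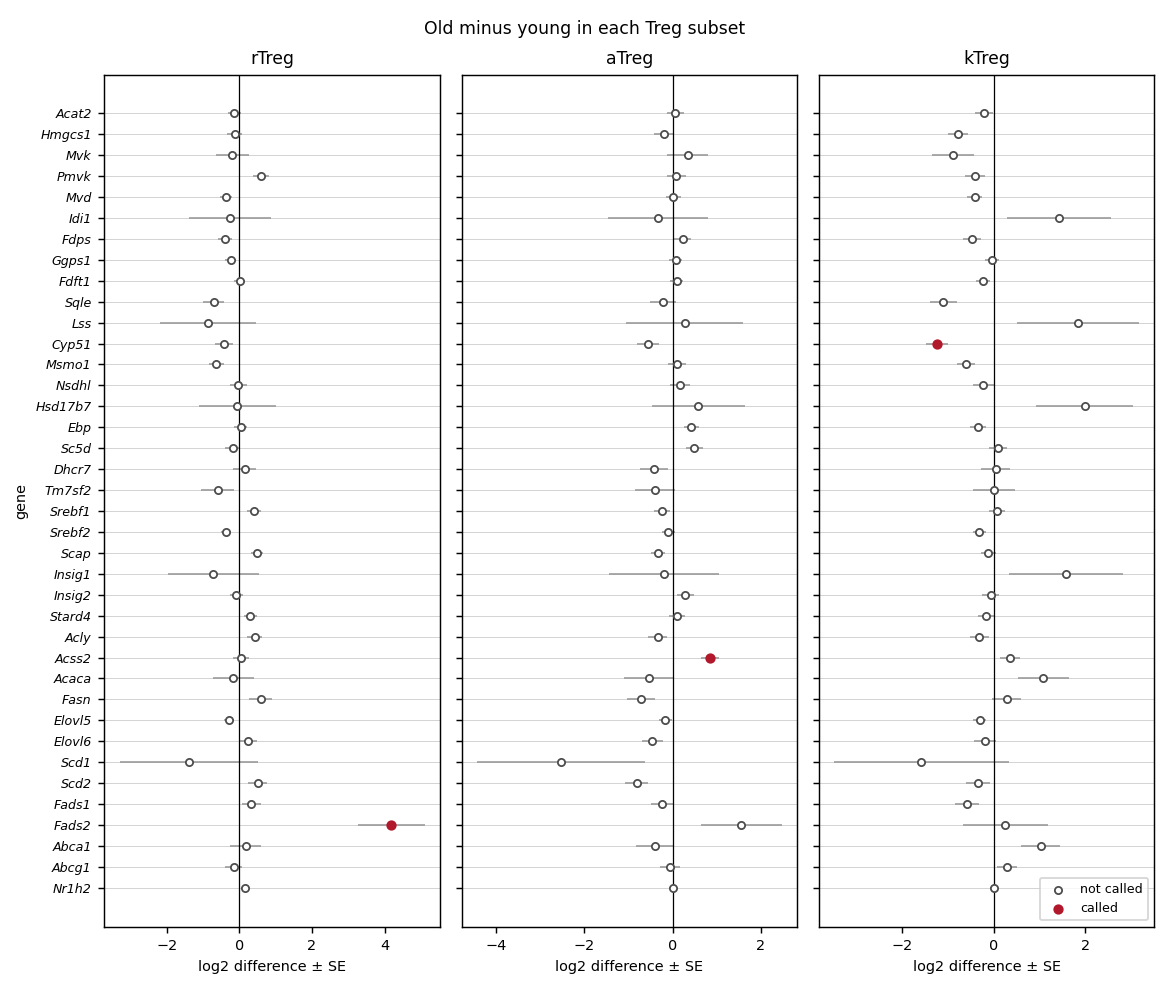
Log2 differences between old and young mice (horizontal axis) in each subset for the 38 genes (vertical axis, ordered by role), with 1 standard error as a bar. Red points were called, which were *Fads2* (through the filter) in rTreg, *Acss2* in aTreg and *Cyp51* in kTreg cells. Long bars at *Idi1*, *Lss*, *Hsd17b7* and *Insig1* come with the library at 0 in young kTreg cells.

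Whether the age difference itself differed between subsets was tested as an interaction. No member was called in any of the 3 interactions, where 0.156% of all genes were called for kTreg against aTreg, 3.02% for kTreg against rTreg and 1.56% for aTreg against rTreg cells. At an unadjusted p below 0.05 with the fold, 6, 8 and 10 members passed, and DESeq2 called 0, 1 and 3. The shares of all genes under these rules are not given here, so these counts cannot be set beside the shares above. The smallest adjusted p was that of *Scd2*, whose difference of aTreg from rTreg cells was lower in old than in young mice, with a log2 difference of −1.33 ± 0.37 (SE; adjusted p = 0.072, limma). *Scap* followed with a log2 difference of −0.82 ± 0.23 (SE; adjusted p = 0.074, limma). With the mouse as a fixed replicate block both were called (adjusted p = 0.0367 and 0.0467, limma), so that 2 members passed in place of 0. For both genes the old mean was above the young one in rTreg cells and below it in aTreg cells. *Scap* had 1090.0, 1320.5, 1011 and 1346 normalized counts in young and 1457, 1679.6, 2049 and 1481 in old rTreg cells, and 1077, 1687, 1214 and 1687 in young and 1138, 952, 1255 and 1066 in old aTreg cells. For *Cyp51* in kTreg against rTreg cells the interaction on the log2 scale was −0.81 ± 0.35 (SE; adjusted p = 0.236, limma), so that its fall was not shown to be larger in kTreg than in rTreg cells. Genes of the proliferation list were called in that interaction, among them *Rrm2* (−2.41 ± 0.37, SE) and *Bub1b* (−3.07 ± 0.49, SE). The part of proliferation in the interactions of the members was not tested.

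Within groups, some of the sterol enzymes varied together from mouse to mouse and others did not. In young rTreg cells mice 2 and 4 were high and mice 1 and 3 low for *Hmgcs1* (858, 1263, 736 and 1334 normalized counts), *Sqle* (904, 1219.7, 604 and 1189) and *Cyp51* (1173, 1863, 819 and 1747). Over the 23 libraries without young kTreg replicate 4, deviations from the group means correlated with r = 0.83 between *Hmgcs1* and *Sqle* (0.72 with that library), 0.80 between *Sqle* and *Sc5d* (0.52), 0.72 between *Cyp51* and *Dhcr7* (−0.0067) and 0.66 between *Sqle* and *Srebf2* (0.60). Other pairs were near 0 or opposed, with −0.54 between *Hmgcs1* and *Ebp*, −0.36 between *Sqle* and *Ebp*, −0.22 between *Cyp51* and *Ebp*, −0.19 between *Cyp51* and *Hsd17b7* and 0.059 between *Hmgcs1* and *Mvd*. These pairs were chosen after their values were seen. The median r over the 171 pairs of the 19 mevalonate and sterol enzymes was 0.26 (quartiles 0.027 and 0.43), against 0.08 among the 10 fatty acid enzymes, −0.05 between both sets and 0.0045 over all pairs of tested genes. These r are descriptions. The libraries of a mouse share the animal. Over the 8 mice, the median r of a member between its rTreg and aTreg libraries was 0.35 (0.12 over all genes), between rTreg and kTreg 0.18 (0.08) and between aTreg and kTreg 0.22 (0.07). It was above 0 in 31, 24 and 27 of the 38 members.

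Genes of neighbouring pathways, listed by function, were counted in the same comparisons, with all 24 libraries only. Of 8 genes for SREBP processing and sterol sensing and 3 other sterol enzymes, 0 were called in any comparison of subsets or ages. Of 16 genes for sterol uptake, transport and esterification, 4 were called higher and 2 lower in kTreg than in rTreg cells, beside 9.37% and 6.09% of all genes. *Soat1*, which esterifies cholesterol for storage, was higher by 0.59 ± 0.13 on the log2 scale (SE; adjusted p = 0.00167, limma), *Gramd1b*, a carrier of plasma membrane cholesterol, by 0.65 ± 0.15, and *Nceh1*, an ester hydrolase, by 0.66 ± 0.18. *Lipa*, the lysosomal lipase, was lower, with −0.78 ± 0.23. *Gramd1b* (0.66 ± 0.15) was called higher in aTreg than in rTreg cells too, as was *Soat2* (2.95 ± 0.83), beside 5.23% of all genes. *Soat2* was higher by 2.68 ± 0.83 in kTreg than in rTreg cells. Of 6 LXR partners and targets, *Smpdl3a* was higher in aTreg (0.62 ± 0.07) and kTreg (0.72 ± 0.07) than in rTreg cells, *Rxra* was higher in kTreg than in rTreg cells (1.48 ± 0.32), and *Arl4c* was lower (−0.80 ± 0.21). Of 10 genes that use isoprenoids, 2 were called lower in kTreg than in rTreg cells, *Fntb* (−2.53 ± 0.66) and *Pdss1* (−0.97 ± 0.33), which act in farnesylation and ubiquinone synthesis, beside 6.09% of all genes. In young mice alone 2 of the 10 were called lower (7.56% of all genes) and in old mice 0 (3.09%), with medians of −0.36 and 0.10. For *Fntb* and *Pdss1* no values without young kTreg replicate 4 are given here.

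Of 19 other genes of fatty acid synthesis and activation, 2 were called higher and 2 lower in kTreg than in aTreg cells, beside 4.13% and 3.26% of all genes. *Hacd3*, a dehydratase of the elongation cycle in which *Elovl5* acts, was higher by 0.97 ± 0.13, and had 7423 to 12738 normalized counts in young and 7282 to 8643 in old kTreg cells against 2826 to 5425 in aTreg cells. Against rTreg cells it was higher by 1.58 ± 0.13 (adjusted p = 1.07e-08, limma). *Hsd17b12*, another enzyme of that cycle, was lower in kTreg than in aTreg cells (−0.59 ± 0.17), and *Mid1ip1*, which activates acetyl-CoA carboxylase, was higher (0.60 ± 0.12). Of 21 genes of fatty acid oxidation, 3 were called higher and 1 lower in kTreg than in aTreg cells, beside the same shares. *Pparg*, a lipid-sensing nuclear receptor, was higher by 3.07 ± 0.46, *Acads* by 0.78 ± 0.14 and *Cpt1a*, which brings fatty acids into mitochondria, by 0.66 ± 0.17. In old against young aTreg cells *Pparg* (3.67 ± 0.64) and *Acadl* (1.33 ± 0.22) were called higher and 0 lower, beside 1.85% and 0.86% of all genes. *Pparg* was also called higher in old than in young rTreg cells (2.16 ± 0.64) and in kTreg than in rTreg cells (3.40 ± 0.46). The old rTreg libraries are those with the raised macrophage and basophil markers given above. The macrophage and monocyte markers summed to 2517 to 4305 in old kTreg and 385 to 668 in old aTreg cells, while the young groups overlapped. The part of such cells in the *Pparg* differences was not tested.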

How the data were processed

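RNA was measured in 24 libraries of splenic Treg cells, 3 subsets from each of 8 mice, with SMART-Seq v4 libraries and paired reads. The authors aligned the reads with HISAT2 2.2.1 to GRCm39, counted them with HTSeq 1.99.2 and deposited a signal per gene and library, the count divided by a size factor of DESeq2 1.44.0 (SAMtools 1.13 is also named). The annotation release, the strand setting and the handling of reads that fit several genes are not given in the sources used here. Without strand, a gene and an overlapping antisense gene cannot be told apart. The table lists genes with a sum of at least 100 reads. Whole reads were recovered from the steps of each library (100% of values whole within 0.001 reads), and all 24 value columns were matched to samples by their labels. Per library, 15045747 to 29521942 reads lay on listed genes. A single read was worth about 1 normalized count, so that values of a few counts are imprecise.

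The comparisons used limma 3.58.1 (limma-trend) on log2(value + 1) in R 4.3.3, with 6 groups in 1 fit, over the 16630 of 17464 genes at 10 or more in at least 4 libraries, and Benjamini-Hochberg adjustment over all of them. A fold change on this scale understates the change of low genes. Subset differences gave both ages equal weight. Alternatives were edgeR 4.0.16 and DESeq2 1.42.0 on the recovered reads, the TMM scaling, a pseudocount of 0.5 or 5, testing all listed genes or only those at 50 or more, the groups compared alone, a fixed replicate block or a random one for the mouse, and leaving out single libraries or mice. Leaving out 4 libraries together was added after the data were seen. The series' description says that the subsets came from 4 young and 4 old mice, so the replicate number marks the mouse. Deviations from the group means correlated with a median r of 0.0912 to 0.153 between libraries of a mouse and of −0.051 to −0.033 between those of different mice, and the consensus correlation was 0.062. The mice are the replicates, and the ages are those the study gives for this experiment. Differences between subsets within an age were repeated only without the 4 libraries.

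The members and lists were chosen with earlier results of these data known, and the list of basophil and mast cell markers was added after values were seen. Any member could be named, values in every library were given for members called between subsets or ages, and genes of other lists were named only when called, at most 4 per list and comparison. Marker genes were named as values. Gene positions and sequences were read from GRCm39 with the GENCODE annotation, in which 17353 of the 17464 identifiers were found, and exon length is the union of a gene's exons. The rule for printing promoters, which asked for members called between subsets over both ages, gave no member with the pattern, so copies in genes that held it were printed, of which 1 is not reported here. The test was checked on simulated data. Plots were made with Matplotlib 3.10.9 in Python 3.11.15, with NumPy 2.4.6 and pandas 2.3.3.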

Additional observations from a re-analysis of the deposited data

Results flagged for a closer look

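In 21 of 228 sets of 4 libraries (each of the 38 genes in each group), the highest or lowest library stood far from the other 3 by Dixon's test, which chance alone gives in about 1 of 20 sets. Young kTreg replicate 4, the library with the most genes at 0, accounted for 9 of them. It was low for *Hmgcs1* (739 normalized counts, the others 995 to 1015), *Mvd* (641, the others 904 to 949), *Dhcr7* (213, the others 826 to 896) and *Acly* (5238, the others 7244 to 7513). It was at 0 for *Lss*, where the others had 390 to 463, and at 0 for *Hsd17b7*, where the others had 194 to 225. It was high for *Mvk* (868, the others 104 to 219), *Tm7sf2* (450.4, the others 87.6 to 132) and *Scd2* (1447, the others 893 to 983).

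*Scd1* was high in replicate 2 of young rTreg (356, the others at most 8.22), of young aTreg (397, the others 0.804 to 5.57) and of old rTreg cells (53.1, the others at most 7.01). *Fads2* was at 4.46 in young aTreg replicate 1 and at 12.6 in old kTreg replicate 2, where the other libraries of the group were at 0. In old kTreg replicate 1, *Hmgcs1* was at 698 (the others 480.5 to 501) and *Hsd17b7* at 281 (the others 198 to 207). The other single values were *Idi1* in young aTreg replicate 3 (234, the others 309.7 to 325), *Ggps1* in young rTreg replicate 2 (1125, the others 1673 to 1688), *Fdft1* in young rTreg replicate 3 (1088, the others 1437 to 1476), *Stard4* in young kTreg replicate 3 (498, the others 399.7 to 416) and *Acaca* in old rTreg replicate 4 (197, the others 86.1 to 98.9).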

How the results depend on the processing

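Under alternatives other than leaving out single libraries or mice, 248 summary values stayed within 1.5 times the count or the spread of the median and 22 moved. At an unadjusted p, 2 members were higher and 2 lower in old rTreg cells, 2 lower in old aTreg cells, 1 higher and 5 lower in old kTreg cells, and 6, 8 and 10 passed in the interactions. DESeq2 called 0 higher and 1 lower in old rTreg cells, 3 lower in old kTreg cells, and 1 and 3 in the interactions of kTreg and of aTreg against rTreg cells. edgeR called 1 lower in aTreg than in rTreg cells and 0 higher in old rTreg cells. A pseudocount of 5 gave 1 call in each of those interactions. With only the groups compared, and with 4 libraries left out, 0 were lower in old kTreg cells. Leaving out the 4 libraries also gave 1 lower in kTreg than in aTreg cells and 1 in the interaction of aTreg against rTreg cells. The fixed replicate block for the mouse gave 2 there and changed no other count of calls. The shares of all genes called under these alternatives, or without single libraries or mice, are not given here. These counts are therefore no result about the list. The *Mvk* difference of kTreg from aTreg cells turned from −0.08 to 0.10 in edgeR and 0.12 in DESeq2. The cause was not tested.

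Without single libraries or mice, the members higher in kTreg than in aTreg cells numbered 0 to 1, those lower in kTreg than in rTreg cells 3 to 5, and those lower in aTreg than in rTreg cells 1 to 4, the highest without young rTreg replicate 3. With age, 0 to 2 were lower in rTreg cells, 0 to 1 higher in aTreg cells and 0 to 2 lower in kTreg cells. The interactions gave 0 to 1 calls for kTreg and 0 to 2 for aTreg against rTreg cells, the highest without young kTreg replicate 4. The median of the members lay between −0.34 and −0.11 in the interaction of kTreg against aTreg cells, the lowest without young mouse 4, and between −0.027 and 0.14 in that of aTreg against rTreg cells, turning below 0 without old rTreg replicate 3. The *Mvk* difference of kTreg from aTreg cells ran from −0.39 to 0.13 and was above 0 in 7 of these repeats. The young kTreg library with many genes at 0 enters the shared spread of every comparison. *Fads2* and *Scd1* were too low for a firm fold, and 4 mice per age limit the interactions.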
